A study of Mus musculus with 23 samples.

Results

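The 7 genes described here encode subunits and regulators of the sodium pump and the channels that set the electrical excitability of the skeletal muscle membrane: Atp1b1, Atp1b2, Fxyd1, Clcn1, Scn4a, Kcnj2 and Nedd4l. They were taken by symbol from a count table of 55573 Ensembl gene IDs, and all 7 passed the filter on low counts that left 13049 genes for testing. Quadriceps muscle of C57Bl6 mice (C57BL/6J in the study's methods) of 8 to 10 weeks was sequenced after 14 days of treatment, to compare the response to corticosterone between the sexes. Corticosterone, the main glucocorticoid of the mouse, was released from a pellet of 50 mg corticosterone with 50 mg cholesterol under the skin of the neck, while the vehicle was a pellet of 100 mg cholesterol alone. The groups were 6 vehicle-treated males, 6 corticosterone-treated males, 6 vehicle-treated females and 5 corticosterone-treated females, none of them with a genetic change, and all mice had been fasted for 5 hours. Each mouse gave 1 library and is named by the letter of its sex and its number. Sequencing dates are not given in the sources used here, so sex and a batch of processing cannot be told apart in comparisons of males with females.

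A muscle fiber fires when voltage-gated sodium channels open and sodium flows in, which carries the action potential along the surface and into the transverse tubules. Chloride and potassium channels then bring the membrane back to rest, and the sodium pump, an alpha subunit with the catalytic site joined to a glycosylated beta subunit, returns sodium and potassium to their sides of the membrane. Loss of the chloride channel ClC-1 causes myotonia, in which fibers fire repeatedly, and mutations of the sodium channel NaV1.4 or the potassium channel Kir2.1 cause periodic paralysis.

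Depth was even, with 20904150 to 21984477 read pairs on genes in each mouse. Levels are given in CPM, the read pairs on a gene divided by the TMM-scaled total of the library and put on the usual per-megaread scale. All 5 myofiber markers were counted in every mouse, with a summed level of 54567 to 143975 CPM. A few libraries stood apart. The 6 hepatocyte markers summed to 2362 CPM in the corticosterone-treated male M8 and to 2350 CPM in the corticosterone-treated female F10, against a median of 198 and 185 CPM in their groups. They were also high in the vehicle-treated male M9 (1413 CPM), the corticosterone-treated male M12 (1388 CPM) and the corticosterone-treated female F6 (1043 CPM), and summed to 15.2 to 297 CPM in the other mice. Calls that were lost without F10 and M8, or without any single mouse, are named with the results. The 5 markers of slow fibers ran from 1.03 CPM in the vehicle-treated male M9 to 3863 CPM in the vehicle-treated female F3. Myh2, the myosin of 2A fibers, was at 18.2 CPM in M9, 22.0 CPM in M8 and 30.4 CPM in the vehicle-treated female F9, and at 241 to 4622 CPM in the other mice.

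The 7 genes differed widely in level once their counts were divided by the length of their merged exons. Fxyd1 was highest at 143 ± 16.9 CPM per kb (SD, n = 23 mice). Atp1b2 followed at 82.4 ± 22.0 CPM per kb and Scn4a at 67.1 ± 13 CPM per kb. Atp1b1 was at 37.0 ± 27.0, Clcn1 at 30.2 ± 7.42 and Kcnj2 at 11.7 ± 2.67 CPM per kb. Nedd4l was lowest at 1.41 ± 0.335 CPM per kb. The ranges of neighbours in this order overlapped for every pair but the last, since Kcnj2 did not go below 6.38 CPM per kb in any mouse and Nedd4l did not go above 1.97 CPM per kb. Atp1b1 varied most, with 25.2 times as much in the highest mouse as in the lowest, against 1.78 to 3.31 times for the other members.

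**Figure D1:**
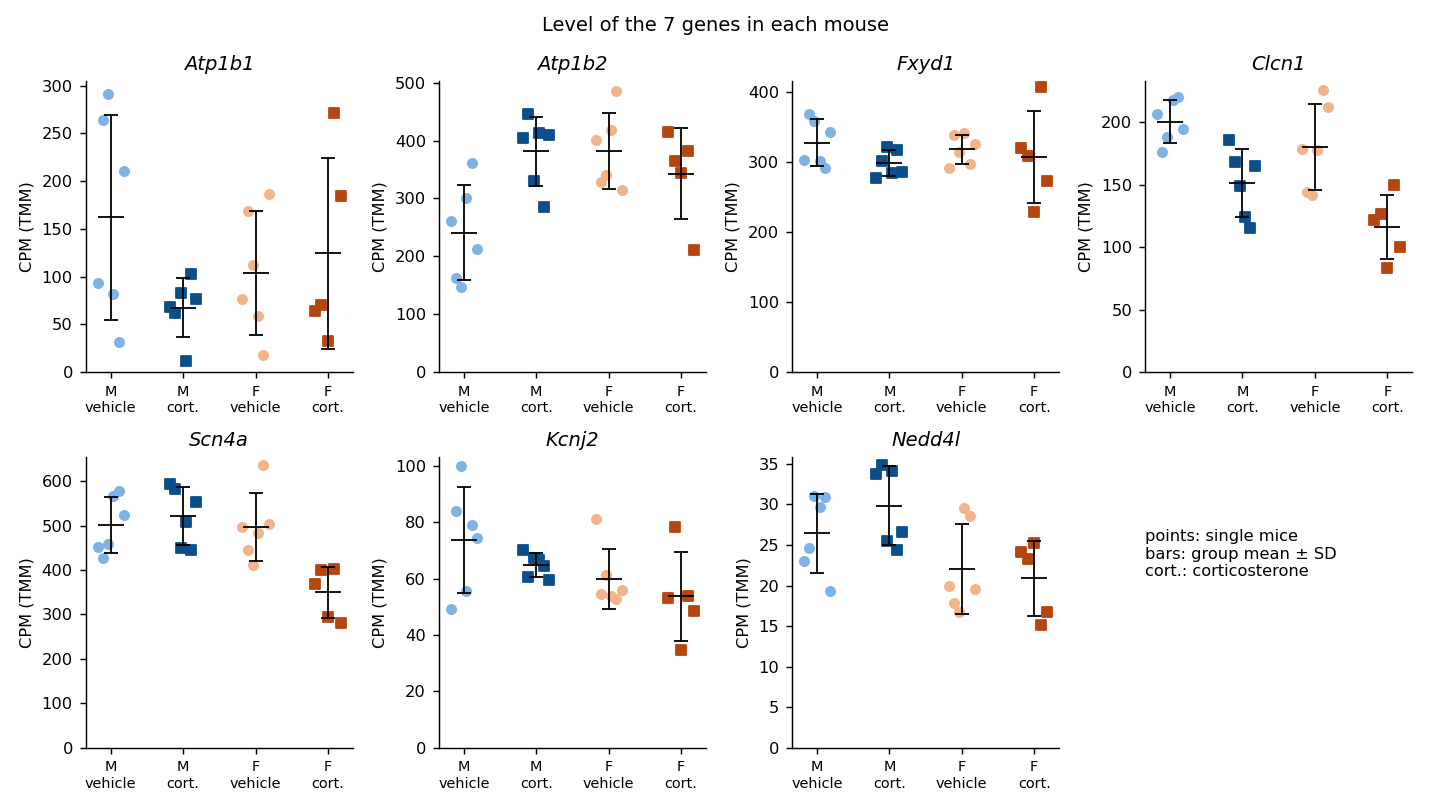
Level of each of the 7 genes in CPM in every mouse, with a panel for each gene and a column for each group of males (M) and females (F). Points are single mice and bars are group means ± SD. The 5 corticosterone-treated females lie below all vehicle-treated females in the Scn4a panel, and Atp1b1 spreads from 11.6 to 291 CPM.

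Among the members, Clcn1 and Scn4a were called lower with corticosterone in females, and these calls did not hold in every fit. In the edgeR quasi-likelihood test with Benjamini-Hochberg adjustment over 13049 genes, both were past the threshold of 0.01, so that 2 of the 7 members were called in females, where 13.4% of all tested genes were called and 6% were called lower. In males 0 of the 7 members were called, where 26.3% of all tested genes were. An unadjusted p below 0.05 was found for 3 members in males (Atp1b1, Atp1b2 and Clcn1), and DESeq2 as well as limma-voom called 1 member there. The median log2 fold change (log2FC) of the 7 members was -0.14 in males and -0.15 in females, beside -0.02 and 0.04 over all tested genes. In a bulk sample, fewer cells of a type and less RNA per cell cannot be told apart.

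**Figure D2:**
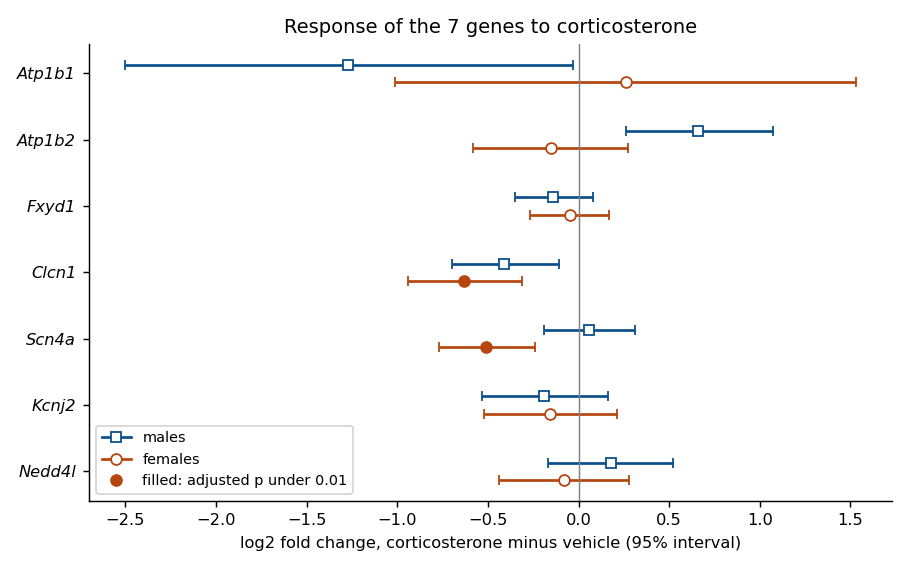
Log2 fold change of the 7 genes, corticosterone minus vehicle, in males (squares) and females (circles), with bars for 95% intervals. Filled symbols passed an adjusted p of 0.01, which in females were Clcn1 at -0.63 and Scn4a at -0.51; no male value did.

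Atp1b1 encodes the beta 1 subunit, which lies at chr1:164437109-164458355 on the minus strand (GRCm38), and Atp1b2 the beta 2 subunit at chr11:69599736-69605942, also on the minus strand. In vehicle-treated males Atp1b2 ran from 147 to 361 CPM with a median of 237 CPM. In corticosterone-treated males it ran from 286 to 446 CPM with a median of 407 CPM. All 6 treated males lay above the vehicle mean and 4 of them lay above every vehicle-treated male, while M6 and M10 lay within the vehicle range. The group means were 241 ± 82.6 and 381 ± 60.4 CPM (SD, n = 6 each), a log2FC of 0.66 (SE 0.20), with an adjusted p of 0.01002 in the edgeR test, just over the threshold. The call depended on the processing. DESeq2 gave an adjusted p of 0.00242 and limma-voom 0.00372, and leaving out F9, F10, M7, M9 or M10 in turn gave 0.00216 to 0.00967.

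In vehicle-treated females Atp1b2 ran from 314 to 486 CPM with a median of 371 CPM. The corticosterone-treated females had 414 CPM in F2, 364 CPM in F4, 344 CPM in F6, 382 CPM in F8 and 211 CPM in F10. Only F10 fell outside the vehicle range. The log2FC in females was -0.15 (95% interval -0.58 to 0.27, adjusted p 0.619 by edgeR), and without F10 and M8 it was -0.04. The difference between the responses of the sexes, the interaction of sex and treatment, was 0.82 on the log2 scale (SE 0.28) and did not pass with an adjusted p of 0.0583 in edgeR. With vehicle, 5 of 6 males lay below every female in Atp1b2, a log2FC of -0.66 (SE 0.20) for males against females with an edgeR adjusted p of 0.0800, which did not pass. With mice of the same number treated as a block, this difference was called by edgeR (adjusted p 0.00521).

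Atp1b1 ran from 31.8 to 291 CPM in vehicle-treated males, with a median of 152 CPM. In corticosterone-treated males it ran from 11.6 CPM in M8 to 103 CPM in M10, with a median of 72.5 CPM. All 6 treated males lay below the vehicle mean, but only M8 lay below the whole vehicle range. The log2FC was -1.27 with an SE of 0.60 (95% interval -2.50 to -0.03), and its edgeR adjusted p of 0.0954 did not pass. In vehicle-treated females Atp1b1 ran from 18.3 to 187 CPM, with a median of 94.5 CPM. The treated females had 64.2 CPM in F2, 69.9 CPM in F4, 32.9 CPM in F6, 271 CPM in F8 and 184 CPM in F10. The 5 treated females fell into 3 low and 2 high mice, and the groups overlapped. Their log2FC was 0.26 (95% interval -1.01 to 1.53, edgeR adjusted p 0.789), and without F8 it was -0.24. The interaction was -1.53 (SE 0.85, adjusted p 0.217). Of the merged exon bases of Atp1b1, 18.66% overlap the gene Nme7 on the opposite strand, and the counting used strand.

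Set against each other per length, the beta subunits traded places between mice. The share of Atp1b1 in the summed per-length level of Atp1b1, Atp1b2 and Atp1b3 ran from 9.06% to 63.7% in vehicle-treated males, with a median of 38.4%. In corticosterone-treated males it ran from 3.17% to 28.4%, with a median of 17.1%. In vehicle-treated females it was 4.26% to 39.5% (median 22.1%) and in treated females 8.79% to 45.0% (median 18.2%). Atp1b1 was above Atp1b2 per length in 4 of the 23 mice, the vehicle-treated males M3, M5 and M11 and the treated female F10.

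Among the 12 vehicle-treated mice, Atp1b1 rose with Myh2. Pearson's r between their log2 CPM was 0.91 (adjusted p 0.00098, two-sided permutation test) and Spearman's rho was 0.89 (adjusted p 0.00196, permutation test), with p-values adjusted over the 14 tests of this family. Without F9 and M9, the mice farthest from the median of Myh2, r was 0.80, and it was 0.99 within males and 0.95 within females (n = 6 each). An r with Myh2 at least this large in size was found for 0.376% of all tested genes. For the r of the other members this share was 3.62% (Scn4a), 7.2% (Fxyd1), 13.1% (Clcn1), 18.9% (Atp1b2), 26.5% (Nedd4l) and 59.5% (Kcnj2). Fxyd1 also rose with Myh2 (r 0.71 and rho 0.76, adjusted p 0.0191 for each by permutation), with 0.68 without F9 and M9, 0.89 within males and 0.47 within females. Scn4a had r -0.78 (adjusted p 0.0130 by permutation) but rho -0.63 (adjusted p 0.0541 by permutation). Its r was -0.73 within males and -0.86 within females, and -0.49 without F9 and M9, so that the pooled relation leaned on those mice. Atp1b2 had r -0.58 (adjusted p 0.0658 by permutation, which did not pass 0.05), with -0.94 within males, -0.87 within females and -0.48 without F9 and M9. Clcn1 had r -0.64 (adjusted p 0.0541 by permutation, which did not pass either), with -0.86 within males, -0.67 within females and -0.49 without F9 and M9. For Nedd4l r was -0.51 and for Kcnj2 0.26, and neither passed 0.05 after adjustment by the permutation test. These permutations treated the 12 mice as independent. Mice of the same number were similar in Myh2 in F9 and M9 (30.4 and 18.2 CPM) and in F3 and M3 (2156 and 1871 CPM). So were F11 and M11 (1030 and 890 CPM), while F7 and M7 had 412 and 241 CPM. F1 and M1 (824 and 282 CPM) and F5 and M5 (847 and 2436 CPM) were less alike. If mice of a number were linked, the p-values are too small.

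**Figure D3:**
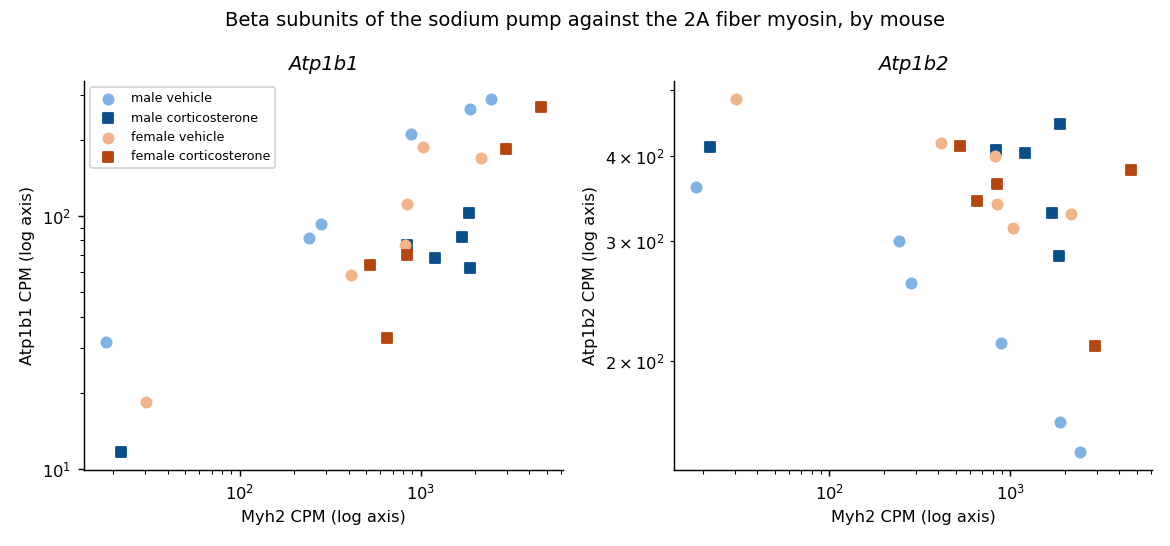
Atp1b1 (left) and Atp1b2 (right) in CPM against Myh2 in CPM, both on log axes, for each of the 23 mice, with colour and shape for the groups. Among vehicle-treated mice (circles) Atp1b1 climbs from the mice with little Myh2 to those with most (r 0.91), while r for Atp1b2 was -0.58 and did not pass 0.05 after adjustment.

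Fxyd1 encodes phospholemman, a small membrane protein that binds the pump and lowers its affinity for sodium until it is phosphorylated. The gene lies at chr7:31051678-31057199 on the minus strand. It ran from 292 to 369 CPM in vehicle-treated males (median 323 CPM) and from 277 to 322 CPM in corticosterone-treated males (median 293 CPM). In females it ran from 291 to 341 CPM with vehicle (median 320 CPM), and the treated mice had 320 CPM in F2, 309 CPM in F4, 229 CPM in F6, 407 CPM in F8 and 273 CPM in F10. The male groups overlapped, and in females the treated mice reached past the vehicle range at both ends. The log2FC was -0.14 in males (95% interval -0.35 to 0.08, edgeR adjusted p 0.309) and -0.05 in females (95% interval -0.27 to 0.17, edgeR adjusted p 0.772). These were the narrowest intervals among the 7 members in both sexes.

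Clcn1 encodes ClC-1, the chloride channel that carries most of the resting conductance of the fiber, and lies at chr6:42286685-42315756 on the plus strand. Vehicle-treated females had 142 to 226 CPM of Clcn1, with a median of 179 CPM. The treated females had 122 CPM in F2, 127 CPM in F4, 83.4 CPM in F6, 150 CPM in F8 and 99.8 CPM in F10. In 4 of the 5 Clcn1 was below every vehicle-treated female, and F8 lay above the lowest of them. The means were 180 ± 34.3 and 117 ± 25.8 CPM (SD, n = 6 and 5), a log2FC of -0.63 (SE 0.15), and the edgeR adjusted p was 0.00451. In males Clcn1 ran from 176 to 220 CPM with vehicle (median 201 CPM) and from 115 to 186 CPM with corticosterone (median 157 CPM). There 5 of 6 treated mice lay below every vehicle-treated male, M2 being the exception. The male log2FC was -0.41 (SE 0.14), and its edgeR adjusted p of 0.0280 did not pass. The interaction was 0.22 (95% interval -0.21 to 0.65, adjusted p 0.477), so a difference between the sexes was not shown. Of its merged exon bases, 8.2% overlap Fam131b on the opposite strand.

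Scn4a encodes the pore-forming subunit of NaV1.4, the sodium channel of adult skeletal muscle, and lies at chr11:106318592-106353288 on the minus strand. Vehicle-treated females had 412 to 637 CPM of Scn4a, with a median of 490 CPM. The treated females had 368 CPM in F2, 401 CPM in F4, 294 CPM in F6, 403 CPM in F8 and 281 CPM in F10. All 5 lay below every vehicle-treated female, a separation in this direction that 4.34% of all tested genes showed. The means were 496 ± 77.0 and 349 ± 58.5 CPM (SD, n = 6 and 5), a log2FC of -0.51 (SE 0.13) with an edgeR adjusted p of 0.00561. In males Scn4a ran from 427 to 577 CPM with vehicle (median 491 CPM) and from 446 to 593 CPM with corticosterone (median 531 CPM), and the groups overlapped. The male log2FC was 0.06 (95% interval -0.19 to 0.31, edgeR adjusted p 0.717). The interaction was 0.57 (SE 0.17) with an adjusted p of 0.0388, which did not pass 0.01, and 0.69% of all tested genes did pass there. An unadjusted p below 0.05 for the interaction was found for 2 of the 7 members, Scn4a and Atp1b2, and DESeq2, limma-voom and edgeR each called 0.

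The female calls of Clcn1 and Scn4a moved with other measures of the same mice. The summed myofiber markers were 90320 to 128956 CPM in vehicle-treated females, and 91682 CPM in F2, 106538 CPM in F4, 64594 CPM in F6, 99791 CPM in F8 and 54567 CPM in F10. The mice with the least of these markers, F6 and F10, also had the least Scn4a and Clcn1. In corticosterone-treated males the markers went down to 81465 CPM in M8, which was above F6 and F10. No treated male had under 446 CPM of Scn4a. Whether the low markers and the low channel genes share a cause was not tested. The 6 adipocyte markers, all of them counted in every mouse except Lep, which was at 0 in the vehicle-treated female F1, summed to 275 to 2449 CPM in vehicle-treated females and to 258 CPM (F8) to 6261 CPM (F6) in treated females, against 216 to 940 CPM in males. With the myofiber score as a covariate, the female log2FC was -0.29 for Clcn1 (edgeR adjusted p 0.105) and -0.25 for Scn4a (edgeR adjusted p 0.122). With the adipocyte score it was -0.48 (adjusted p 0.0413) and -0.41 (adjusted p 0.0458) in edgeR. Without F10 and M8 it was -0.59 (adjusted p 0.0145) for Clcn1 and -0.45 (adjusted p 0.0209) for Scn4a in edgeR, so neither call held. With the hepatocyte score both were called, at -0.63 (adjusted p 0.00654) for Clcn1 and -0.52 (adjusted p 0.00672) for Scn4a in edgeR. In males, with the myofiber score, Clcn1 was at -0.38 with an edgeR adjusted p of 0.00185 and was called.

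Leaving out 1 mouse also ended these calls. Clcn1 in females was lost without F2, F6, F9, F10 or F11, with adjusted p from 0.0102 to 0.0162 in edgeR. Scn4a in females was lost without F1, F2, F6, F7, F9, F10 or F11, with adjusted p from 0.0105 to 0.0192 in edgeR. Both stayed negative in all 23 of these fits, at -0.74 to -0.54 for Clcn1 and -0.56 to -0.42 for Scn4a.

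**Figure D4:**
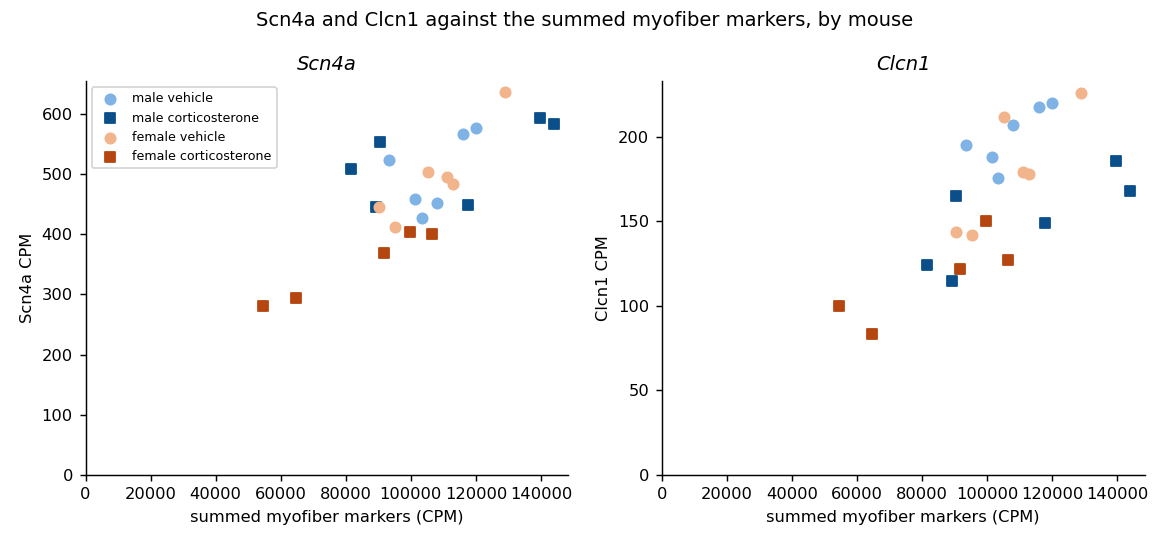
Scn4a (left) and Clcn1 (right) in CPM against the summed level of 5 myofiber markers, also in CPM, for each of the 23 mice. The corticosterone-treated females F6 and F10 sit at the lower left of both panels, with 294 and 281 CPM of Scn4a, and F2, F4 and F8 overlap the vehicle-treated females on the marker axis.

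Over the 23 mice Clcn1 and Scn4a were the most alike of the 21 pairs of members, with r = 0.81 between their log2 CPM, as a description across mice of 4 groups. The promoters of both are shown for this reason, and that of Atp1b1 because it varied most. The 250 bases before the annotated start come from RefSeq on GRCm38.p6 and are printed 5′ to 3′ on the strand of the gene, with capitals for every match to a searched motif on either strand. Promoters of 5 of the 7 members were searched. The source of the promoters held none for Atp1b2, and Nedd4l was left out because of its chromosome.
Clcn1, chr6:42286435-42286684, plus strand: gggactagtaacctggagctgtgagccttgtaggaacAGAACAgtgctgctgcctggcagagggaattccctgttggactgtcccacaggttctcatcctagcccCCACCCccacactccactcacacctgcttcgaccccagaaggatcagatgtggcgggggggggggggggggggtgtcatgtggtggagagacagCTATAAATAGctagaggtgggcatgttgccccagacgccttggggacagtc
Scn4a, chr11:106349391-106349640, minus strand: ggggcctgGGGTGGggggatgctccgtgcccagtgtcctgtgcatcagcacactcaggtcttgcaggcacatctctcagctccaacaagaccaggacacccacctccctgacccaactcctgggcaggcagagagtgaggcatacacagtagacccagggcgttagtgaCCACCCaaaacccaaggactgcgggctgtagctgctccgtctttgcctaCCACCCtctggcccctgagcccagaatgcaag
Atp1b1, chr1:164458356-164458605, minus strand: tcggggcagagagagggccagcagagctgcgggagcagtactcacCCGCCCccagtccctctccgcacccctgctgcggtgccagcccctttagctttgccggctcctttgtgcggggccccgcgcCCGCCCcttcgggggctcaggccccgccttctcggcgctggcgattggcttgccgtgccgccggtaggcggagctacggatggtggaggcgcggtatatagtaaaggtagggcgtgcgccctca

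The starts that RefSeq gives for Scn4a and Fxyd1 lie inside those genes as GENCODE draws them, so the stretch printed for Scn4a and the one searched for Fxyd1 are those of the RefSeq transcripts alone. Both strands were searched for 8 motifs. For the glucocorticoid response element these were the inverted repeat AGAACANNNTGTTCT, a looser form of it written GNACANNNTGTNC, and its hexamer AGAACA. The E-box searched was CAGCTG and the TATA box was TATAAA. The GC box, a site of the Sp1 family, was taken as GGGCGG. The CACCC box, a site of Krüppel-like factors, was taken as CCACCC. The MEF2 motif was searched by its usual consensus. Clcn1 held the hexamer at position -213 from its start, the CACCC box at -145, and the TATA box at -50 inside a MEF2 match that began at -51. Scn4a held the CACCC box at -242 on the opposite strand and at -81 and -32. Atp1b1 held the GC box at -205 and -124, both on the opposite strand, and none of the other motifs. Of 32851 promoters of the same length, 16.1% held the hexamer, 28.1% the CACCC box, 12.4% the TATA box, 32.7% the GC box, 13% the E-box and 2.92% the MEF2 motif. The looser response element was in 0.387% of them and the inverted repeat in 0.00913%, and neither was in the windows of the 5 members. Fxyd1 held the CACCC box at -137 on the opposite strand, and Kcnj2 held the E-box at -206 and the GC box at -102 and -51. A match is a run of letters and was not tested as a binding site.

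Kcnj2 encodes Kir2.1, an inward rectifier potassium channel that holds the resting potential, and lies at chr11:111066164-111076821 on the plus strand. It ran from 49.3 to 100 CPM in vehicle-treated males (median 76.7 CPM) and from 59.5 to 70.3 CPM in treated males (median 65.6 CPM). The treated males all lay below the vehicle mean yet inside the vehicle range, and varied little among themselves, with a coefficient of variation of 6.43% against 25.5% with vehicle. In females Kcnj2 ran from 52.8 to 81.1 CPM with vehicle (median 55.2 CPM), and the treated mice had 53.0 CPM in F2, 78.5 CPM in F4, 34.7 CPM in F6, 53.7 CPM in F8 and 48.5 CPM in F10. F6 and F10 lay below the vehicle range and the other treated females inside it. The log2FC was -0.19 in males (95% interval -0.53 to 0.16, edgeR adjusted p 0.397) and -0.16 in females (95% interval -0.52 to 0.21, edgeR adjusted p 0.539).

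Nedd4l encodes a ubiquitin ligase that removes sodium channels from the membrane and is itself held back by the kinase SGK1, and lies at chr18:64887705-65217828 on the plus strand. It ran from 19.3 to 31.1 CPM in vehicle-treated males (median 27.1 CPM) and from 24.4 to 34.9 CPM in treated males (median 30.2 CPM). In females it ran from 16.7 to 29.6 CPM with vehicle (median 19.8 CPM), and the treated mice had 24.1 CPM in F2, 23.3 CPM in F4, 25.2 CPM in F6, 15.1 CPM in F8 and 16.7 CPM in F10. In both sexes the treated and vehicle-treated mice overlapped. The log2FC was 0.18 in males (95% interval -0.17 to 0.52, edgeR adjusted p 0.417) and -0.08 in females (95% interval -0.44 to 0.28, edgeR adjusted p 0.777).

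Between the sexes, 0 of the 7 members differed with vehicle in edgeR, where 0.958% of all tested genes were called. An unadjusted p below 0.05 was found for 1 of them, Atp1b2, and DESeq2 and limma-voom also called 0. Under corticosterone 1 of the 7 members was called, higher in males, where 23.3% of all tested genes were called and 9.31% were higher in males. That gene was Scn4a, at 522 ± 65.0 CPM in males and 349 ± 58.5 CPM in females (SD, n = 6 and 5), a log2FC of 0.58 (SE 0.13) with an edgeR adjusted p of 0.00148. All 6 treated males lay above all 5 treated females in Scn4a, a separation in this direction that 6.87% of all tested genes showed. It was not called with the myofiber score as a covariate, at 0.36 and an edgeR adjusted p of 0.0133. Nedd4l was at 29.9 ± 4.84 CPM in treated males and 20.9 ± 4.62 CPM in treated females, with 5 of 6 males above every female and a log2FC of 0.52 (SE 0.17), and its edgeR adjusted p of 0.0231 did not pass, while DESeq2 gave 0.0085. For Clcn1 the log2FC was 0.38 (adjusted p 0.0529 in edgeR).

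For each member the 3 tested genes with the closest pattern over the 23 mice were listed by Pearson's r of log2 CPM, as a description of these libraries. For Atp1b1 they were Nceh1, Ciapin1 and Gm32391, each at 0.95. For Atp1b2 they were Ncdn (0.90), March4 (0.86) and Mical2 (0.83). For Fxyd1 they were Ndufs6 (0.89), Ndufa13 (0.88) and Ndufa5 (0.88), all subunits of respiratory complex I. Clcn1 was closest to Syngr1 (0.94), Fn3k (0.93) and Tarsl2 (0.93), and Scn4a to Prune1 (0.94), Jph1 (0.94) and Capn1 (0.92). Kcnj2 had no close partner beyond Mpp5 (0.84), followed by Tmem11 (0.76) and Hsf2 (0.75). Nedd4l was closest to Csnk1a1 (0.87), Senp3 (0.86) and Mtmr6 (0.85). Among the members themselves Atp1b1 had r = -0.68 with Atp1b2 and 0.64 with Fxyd1.

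The other genes of the pathway were followed in a list of 46, of which 40 passed the filter. In males 15 of the 40 were called by edgeR with 11 higher and 4 lower, beside 26.3% of all tested genes. In females 10 were called with 4 higher and 6 lower, beside 13.4% of all tested genes. The 6 genes called in both sexes moved the same way in each, and Scn3b, Scn4b, Kcnq5 and Slc8a3 were among them. The interaction was called for 0 of the 40 genes by edgeR, with 13 at an unadjusted p below 0.05, while DESeq2 called 3 and limma-voom 2. Of all 13049 tested genes, edgeR called 90 for the interaction (0.69%), DESeq2 896 and limma-voom 693. The median log2FC of the 40 was 0.01 in males and 0.12 in females. Of the list, 6 genes were not tested, among them Atp1a4, Fxyd3, Fxyd4, Fxyd7 and Kcne3.

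Among the partners of the members in the pump, neither Atp1b3, the beta 3 subunit, nor a tested FXYD gene was called in either sex. All 3 tested FXYD genes of the list had an unadjusted p below 0.05 in males by edgeR (median log2FC -0.88), and 0 had in females. Of the 40 tested genes of the whole list, 29 had such a p in males and 21 in females. Over all tested genes, 26.3% were called in males and 13.4% in females. The accessory subunits of the sodium channel that Scn4a encodes moved in both directions. Scn4b, the beta 4 subunit, fell in males from 561 to 321 CPM (log2FC -0.81, adjusted p 0.000406) and in females from 533 to 339 CPM (log2FC -0.65, adjusted p 0.00646) in edgeR, where the female call did not hold in every fit. With the myofiber score as a covariate Scn4b was at -0.31 in females with an edgeR adjusted p of 0.124. Scn3b, the beta 3 subunit, was at a low level and rose in males from 1.25 to 8.54 CPM (log2FC 2.77, adjusted p 6.04e-06) and in females from 1.5 to 4.25 CPM (log2FC 1.49, adjusted p 0.00508) in edgeR. Scn2b, the beta 2 subunit, rose in males from 1.34 to 2.59 CPM (log2FC 0.95, adjusted p 0.00302 in edgeR).

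Near Kcnj2 in the list, Kcnj12, which encodes the related inward rectifier Kir2.2, rose in males from 50.9 to 108 CPM (log2FC 1.08, SE 0.18, edgeR adjusted p 9.54e-05). Abcc8, which encodes SUR1, a regulatory subunit of ATP-sensitive potassium channels, rose in males from 1.46 to 6.13 CPM (log2FC 2.06, edgeR adjusted p 7.32e-05). Kcnq5, a voltage-gated potassium channel, fell in males from 19.7 to 5.54 CPM and in females from 20.6 to 9.09 CPM (log2FC -1.83 and -1.18, edgeR adjusted p 5.16e-05 and 0.00652). Kcnn3, a calcium-activated potassium channel, fell in males from 3.04 to 1.13 CPM (log2FC -1.42, edgeR adjusted p 0.00470). Among the transporters that carry sodium, Slc12a2 (the cotransporter NKCC1) rose in males from 68.9 to 193 CPM (log2FC 1.49, edgeR adjusted p 8.55e-06). Slc8a3 (the sodium-calcium exchanger NCX3) fell in males at -1.28 (edgeR adjusted p 0.00100). In females it was at -1.08, with an edgeR adjusted p of 0.00951 that was past the threshold by little and was lost in 18 of the 23 fits that left out a mouse, with adjusted p up to 0.0324.

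Of the regulators that act on Nedd4l and the channels, Sgk1 rose in males from 154 to 452 CPM (log2FC 1.55, SE 0.34, edgeR adjusted p 0.00112). In females Sgk1 had means of 132 and 239 CPM (log2FC 0.85, adjusted p 0.0745), and the interaction of 0.70 had an adjusted p of 0.328 in edgeR, so that a difference between the sexes was not shown. Tsc22d3, the glucocorticoid-induced leucine zipper, rose in males from 173 to 345 CPM (log2FC 1, edgeR adjusted p 0.00421). Nedd4, the ligase most like Nedd4l, had a log2FC of 0.34 in males (adjusted p 0.0218) and 0.18 in females (adjusted p 0.290) and was not called by edgeR. Wnk1 and Oxsr1, kinases of the cascade that controls chloride cotransporters, fell in females by 0.47 and 0.44 on the log2 scale (edgeR adjusted p 0.00398 and 0.00301). Of the proteins that anchor channels and pumps, Ank3 (ankyrin-G) rose in males from 86.7 to 171 CPM (log2FC 0.98, edgeR adjusted p 8.94e-06).

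**Figure D5:**
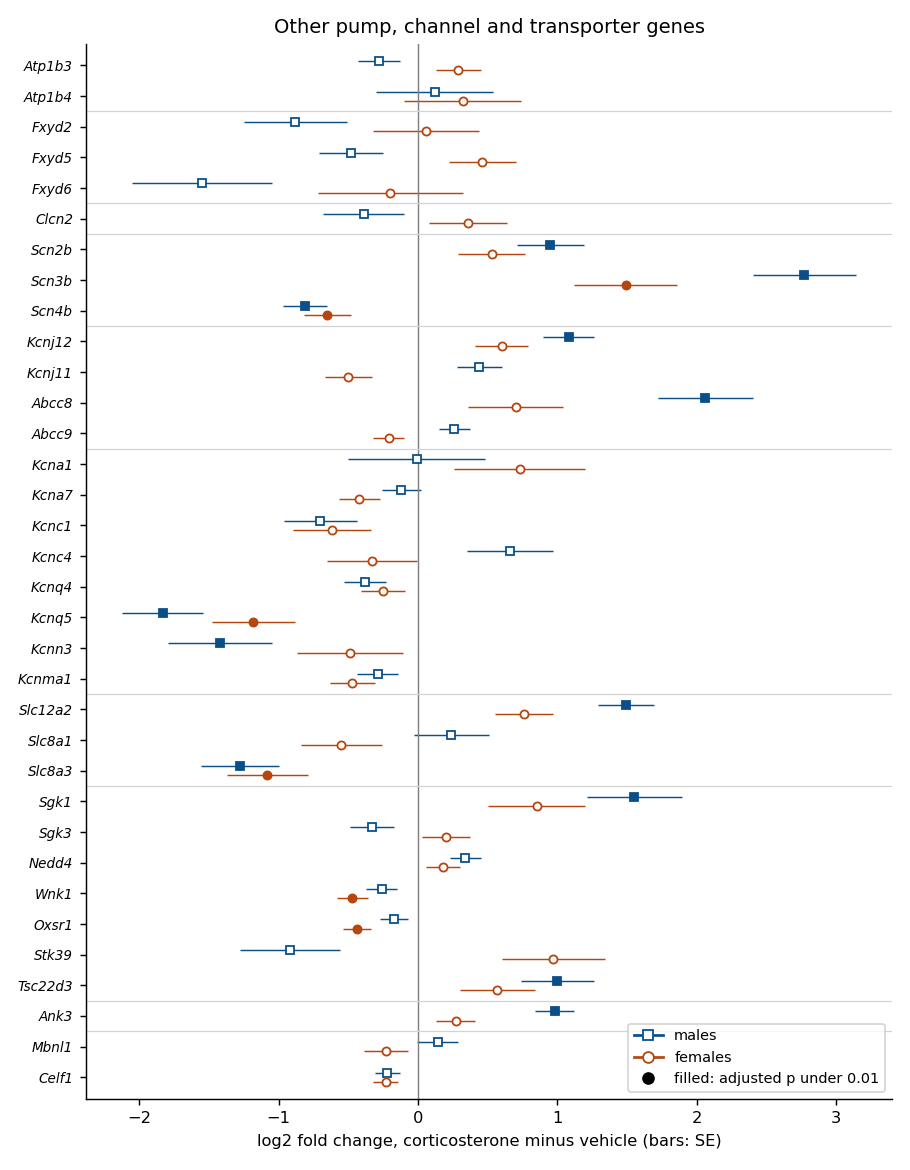
Log2 fold change of 34 of the 40 tested pathway genes, corticosterone minus vehicle, in males (squares) and females (circles), with bars for the SE and lines between the gene groups. Filled symbols passed an adjusted p of 0.01, 12 of those drawn in males and 6 in females; the 6 tested genes not drawn, which hold 3 of the calls in males and 4 of those in females, are not reported here.

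The female counts of this list depended on single mice. Without F2 or F6 in turn 2 of the 40 genes were called in females, without F7 3, without F1 or F9 5, and without F11 6, in place of 10. With the adipocyte score as a covariate 1 was called in females and with the myofiber score 2, and without F10 and M8 4. In males the count was 13 to 16 whichever mouse was left out. By gene, the female call of Scn4b was lost without F1, F2, F6, F7, F9, F10 or F11 (adjusted p up to 0.0231), that of Kcnq5 without F1, F2, F6, F7, F9 or F11 (up to 0.0208), that of Scn3b without F1, F2, F6, F7 or F9 (up to 0.0285), that of Wnk1 without F2, F7 or F9 (up to 0.0132) and that of Oxsr1 without F2 or F6 (up to 0.0109) in edgeR. Slc8a3 in females was called in 5 of the 23 fits, and it was also lost with filterByExpr (adjusted p 0.0104) and with no filter (adjusted p 0.0135) in edgeR. Without both F10 and M8, the female log2FC in edgeR was -0.61 for Scn4b (adjusted p 0.0155), -0.97 for Slc8a3 (adjusted p 0.0294), -1.29 for Kcnq5 (adjusted p 0.0107), -0.45 for Wnk1 (adjusted p 0.0114) and -0.41 for Oxsr1 (adjusted p 0.0116), none of them called, and 1.62 for Scn3b (adjusted p 0.00589), which was called. With each sex fitted alone, and with the adipocyte or the myofiber score as a covariate, these 6 genes were not called in females by edgeR. In males, without F10 and M8, Kcnn3 (-1.25, adjusted p 0.0167) and Tsc22d3 (0.93, adjusted p 0.0128) were not called in edgeR. Of the genes called in males, Scn2b was lost without M10 (adjusted p 0.0105), Kcnn3 without M3, M5, M4, M8 or M12 (adjusted p up to 0.0176) and Tsc22d3 without M1, M5, M4 or M8 (adjusted p up to 0.0118) in edgeR.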

How the data were processed

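Stranded mRNA libraries of quadriceps from 23 mice were sequenced as 100 bp read pairs. Per the labels and the study's methods, the authors checked reads with FastQC and MultiQC, aligned them to mm10 with STAR 2.7.3a, counted read pairs unique to a gene by strand with HTSeq 0.12.4 against Ensembl 97, and deposited raw counts. Entries for reads on no gene (10.7% to 15.3% of a library) were left out. Groups came from the labels, and replicates are separate mice. Counts were tested in R 4.3.3 with edgeR 4.0.16 (quasi-likelihood, TMM, 4 group means in 1 model), on genes with over 20 median-of-ratios normalized counts in at least 4 mice of a group, as in the study, and p-values were adjusted by Benjamini-Hochberg over 13049 genes (threshold 0.01). Log2 CPM used a prior count of 1, and intervals are at 95%. Positions and exon lengths came from GENCODE M21 (GRCm38). A marker score used as a covariate was the mean log2 CPM over the tested genes of a marker list, not the summed CPM given in the text. Tested on simulated data for 13049 genes, edgeR recovered 72.5% of 200 genes changed by 1 on the log2 scale in the comparison of males and 63.5% in that of females. Alternatives were DESeq2 1.42.0, limma 3.58.1 (voom with sample weights), median-of-ratios scaling, filterByExpr (15045 genes), no filter (31922 genes), a required log2FC over 1 in either direction, each sex alone, a replicate block and 23 fits that each left out a mouse. Named were the 7 members, those genes of the pathway list past the threshold in males, females or the interaction, Sgk1 and Nedd4, and the 3 genes closest to each member; some genes that this rule names are counted but not reported here. The members and lists were chosen with earlier results of these data known.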

Additional observations from a re-analysis of the deposited data

Results flagged for a closer look

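Of 28 sets of values tested (7 genes in 4 groups), 1 held a mouse far from the others. Kcnj2 was at 81.1 CPM in the vehicle-treated female F1, against 52.8 to 61.2 CPM in the other 5 vehicle-treated females, a gap to the next mouse larger than Dixon's critical value allows for 6 samples. Chance flags about 5% of such sets. Without F1 the female log2FC of Kcnj2 was -0.05, beside -0.16 with all mice, and neither passed in edgeR.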

How the results depend on the processing

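The calls in females rest on few mice. Every member had at least 262 counts in each mouse. With all mice, 0, 2, 0, 0 and 1 members, 15, 10, 0, 0 and 11 pathway genes and 3426, 1748, 90, 125 and 3043 of all tested genes were called in males, in females, for the interaction, between the sexes with vehicle and between the sexes under corticosterone. Leaving out each mouse in turn gave 0 to 1, 0 to 2, 0, 0 and 1 members, 13 to 16, 2 to 12, 0 to 1, 0 to 1 and 3 to 11 pathway genes, and 2888 to 3643, 1004 to 2359, 1 to 893, 99 to 138 and 1885 to 3742 of all genes in the same order. Counts are given below where they moved by over 1.5 times. With a log2FC over 1 required, 0 members were called in females and 0 between the sexes under corticosterone, with 9, 5 and 4 pathway genes in males, in females and between the sexes under corticosterone, and 982, 732, 40, 75 and 1014 of all genes. DESeq2 called 1 member in males (Atp1b2) and 2 between the sexes under corticosterone (Scn4a and Nedd4l), 3 pathway genes for the interaction and 1 between the sexes with vehicle, and 896 and 284 of all genes there. Limma-voom called 1 member in males, 2 pathway genes for the interaction and 1 between the sexes with vehicle, and 693 of all genes for the interaction. Median-of-ratios scaling called 1 member in males. With no filter, 1 member and 6 pathway genes were called in females, 7 pathway genes between the sexes under corticosterone and 10 of all genes for the interaction. With each sex fitted alone, 0 members, 1 pathway gene and 561 of all genes were called in females. The following settings were chosen after seeing the data. With the adipocyte score as a covariate, 1 member was called in males and 0 in females, 1 pathway gene in females and 4 between the sexes under corticosterone, and 686, 1 and 1538 of all genes in females, for the interaction and between the sexes under corticosterone. With the slow fiber score, 1 member was called in males and 1 between the sexes with vehicle (Atp1b2 in each), 6 pathway genes between the sexes under corticosterone and 30 of all genes for the interaction. With the myofiber score, 2 members were called in males (Atp1b2 and Clcn1), 0 in females and 0 between the sexes under corticosterone, 2, 1 and 1 pathway genes in females and between the sexes with vehicle and under corticosterone, and 548, 1, 193 and 852 of all genes in females, for the interaction and between the sexes with vehicle and under corticosterone. With the hepatocyte score, 1 pathway gene was called between the sexes with vehicle. Without F10 and M8, 0 members and 4 pathway genes were called in females, 1 and 3 pathway genes between the sexes with vehicle and under corticosterone, and 4 and 1382 of all genes for the interaction and between the sexes under corticosterone. Why these counts moved was not tested.

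The values that changed sign all lay near 0 or had wide intervals, and none was called under any setting. In females Atp1b1 was at -0.13 in limma-voom and -0.12 with the slow fiber score, and at -0.24 to 0.51 over the fits without a mouse. Atp1b2 was at 0.20 in females with the myofiber score, and between the sexes under corticosterone at -0.08 with the slow fiber and -0.13 with the myofiber score. Fxyd1 in females was at 0.04 with the adipocyte and 0.02 with the myofiber score and at -0.17 to 0.03 without a mouse, its interaction at -0.16 to 0.04 without a mouse, and its difference between the sexes under corticosterone at 0.00 with no filter, 0.01 in limma-voom, 0.03 with the slow fiber score and -0.11 to 0.08 without a mouse. The interaction of Clcn1 was -0.09 with the myofiber score. Scn4a between the sexes with vehicle was at -0.01 with the slow fiber score and -0.04 to 0.10 without a mouse. The interaction of Kcnj2 was 0.01 with no filter, 0.09 in limma-voom, 0.01 with the slow fiber score and -0.13 to 0.15 without a mouse. Nedd4l in females was at 0.03 in limma-voom, 0.01 with the slow fiber score, 0.14 with the myofiber score and -0.17 to 0.02 without a mouse.

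Males and females share replicate numbers, which could be checked as a pairing in 11 pairs. The correlation of deviations from group means within pairs ran from -0.377 to 0.477, was over 0.1 in 7 of the 11, and 4 correlated best with their own number. It was positive in every vehicle pair (0.085 for F1 and M1 to 0.477 for F7 and M7), and the negative values were all in corticosterone pairs. The main fit did not take the numbers to pair the mice. These values do not settle whether vehicle-treated mice of a number were linked. With the replicate block, 1 member was called between the sexes with vehicle (Atp1b2), 1, 1 and 6 pathway genes were called for the interaction and between the sexes with vehicle and under corticosterone, and the interaction of Kcnj2 was 0.06. Vehicle and corticosterone mice of a sex share no number, so no block could be used there.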
